A study of Homo sapiens with 4 samples.

Results

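The 3656 windows described here are 1 kb stretches of the K562 genome where crotonylated H3K14 (H3K14cr) stood well above its surroundings and the chromatin protein DPF2 was lower. They were found among 2598309 windows with at least 1 read, and 9389 windows passed the part of the rule that concerns H3K14cr alone. Levels are given in CPM, reads in a window scaled to a library of 1000000 reads, and fold means the level of a window over the mean of the 20 windows within 10 kb, or over the chromosome mean where that was higher. The windows were chosen by measured values: a fold of at least 3 in both H3K14cr libraries, a mean H3K14cr level of at least 2 CPM, and a mean H3K14cr level at least 1.5 times the mean DPF2 level. Windows in the top 0.1% of all 4 libraries, 768 in number, were left out. A pair of other sets serves for comparison. The 5650 balanced windows passed the same H3K14cr fold and level but had a ratio within 1.5 in either direction, and the 571 DPF2-dominated windows met the mirror-image rule.

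Chromatin immunoprecipitation and sequencing was done in K562, an established human cell line from chronic myeloid leukaemia with erythroid features. By the labels, DPF2 was precipitated in 2 libraries and H3K14cr in 2, all from formaldehyde-fixed wild-type cells with no treatment named. The same wild-type line served both antibodies, and no input or other control library was analysed here, so enrichment is always over neighbouring sequence. Positions are on hg19 and are counted from 1. Genes, promoters and sequence at the windows were not analysed here, because no genome or annotation of that build was used.

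Crotonylation is an acyl mark placed on histone lysines by enzymes that also acetylate, and it is found mainly at active promoters and enhancers. DPF2 is a subunit of the BAF (mammalian SWI/SNF) chromatin remodelling complexes, which slide and evict nucleosomes. Its double PHD finger binds the tail of histone H3 and accommodates acyl groups on H3K14, crotonyl among them, which makes it a reader of this mark.

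The DPF2 libraries came to 7787444 and 13317496 reads, and those of H3K14cr to 10880366 and 17369133. Within an antibody, the libraries were no further apart than sampling noise. Between replicates, chi-square per degree of freedom over all windows with a read was 0.981 (DPF2) and 0.990 (H3K14cr), against 1.08 to 1.13 between antibodies, so both pairs differed by less than the sampling noise. At the 3656 windows it was 0.953 and 0.836, and 5.12 to 7.27 between antibodies, but there the rule used the same values. Each pair was therefore counted as 1 sample, n = 1 for DPF2 and n = 1 for H3K14cr, and no difference between the antibodies has a biological replicate behind it. Intervals of ratios cover the counting error of reads only, and reads here may include copies of the same molecule. Intervals of shares treat windows as independent draws and cover neither the counting error of reads nor biological spread.

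At the H3K14cr-dominated windows both antibodies were above background, and H3K14cr was the higher of the pair. The mean H3K14cr level ran from 2.001 to 8.70 CPM with a median of 3.58. The mean DPF2 level ran from 0.594 to 4.30 CPM with a median of 1.96, while the median over all covered windows was 0.289 CPM for DPF2 and 0.266 CPM for H3K14cr. These levels chose the windows and are given as a description. At balanced windows the medians were 3.08 CPM for H3K14cr and 2.62 CPM for DPF2, so the medians of the sets differed for both antibodies, in opposite directions.

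The ratio of H3K14cr to DPF2 was modest at most of these windows. Its quartiles were 1.61, 1.75 and 1.995, and its highest value was 3.96. A ratio of at least 2 was reached by 899 windows (24.6%) and a ratio of at least 3 by 38 (1.04%). The read numbers behind single windows were small: the median window had 15 and 27 DPF2 reads and 39 and 61 H3K14cr reads in replicates 1 and 2. With pooled reads and exact 95% binomial intervals, the lower bound of the ratio was above 1 at 3507 windows (95.9%), above 1.5 at 452 (12.4%) and above 2 at 32 (0.875%). At 149 windows (4.08%) the interval reached 1 or less. The same reads chose the windows, so these counts describe them and are no test. Median-of-ratios factors were also used in place of library totals. They were computed from enriched windows, at a fold of at least 3, and not from all windows. With levels rescaled by them, 719 windows passed the whole rule, all of them among the 3656.

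**Figure D1:**
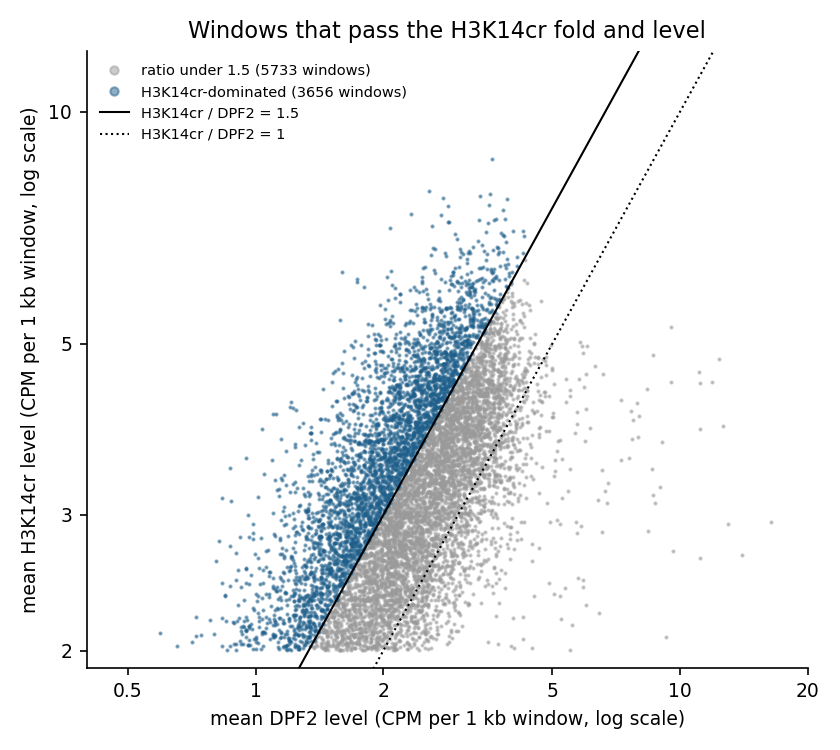
Mean DPF2 level (x axis, CPM per window, log scale) against mean H3K14cr level (y axis, CPM per window, log scale) for the 9389 windows that passed the H3K14cr fold and level. The 3656 H3K14cr-dominated windows lie above the solid line at a ratio of 1.5, which they were selected on, and form the upper edge of 1 continuous cloud with no gap at the line.

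Windows on either side of the threshold were nearly alike. Just inside it, chr6:53213001-53214000 had 3.21 and 2.18 CPM in the DPF2 libraries and 4.05 and 4.03 CPM in the H3K14cr libraries. Just outside, chr21:16437001-16438000 had 2.70 and 2.25 CPM for DPF2 and 3.68 and 3.74 CPM for H3K14cr. In both windows the antibodies did not overlap. The other 2 windows nearest to the threshold were chr6:123110001-123111000 and chr1:21113001-21114000 inside, and chr6:28303001-28304000 and chr20:3827001-3828000 outside. At chr1:21113001-21114000 the libraries did overlap, with 1.92 and 3.83 CPM for DPF2 and 3.68 and 4.95 CPM for H3K14cr.

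The highest H3K14cr level of the set was at chr1:46768001-46769000. Its H3K14cr libraries had 8.64 and 8.75 CPM (94 and 152 reads) and its DPF2 libraries 2.70 and 4.51 CPM (21 and 60 reads). The ratio of pooled reads was 2.27 (95% interval 1.76 to 2.95), and the interval does not allow for picking the window by its level. The H3K14cr replicates were close together, the DPF2 replicates were further apart, and the antibodies did not overlap. Next in order came chr1:44445001-44446000, chr19:1408001-1409000, chr16:89642001-89643000, chr4:1961001-1962000, chr6:37138001-37139000, chr17:79633001-79634000 and chr9:136150001-136151000. At chr4:1961001-1962000 the H3K14cr libraries had 9.01 and 6.45 CPM and the DPF2 libraries 2.83 and 2.70 CPM. There H3K14cr stood 11.004-fold and 7.61-fold over its surroundings and DPF2 3.44-fold and 3.83-fold, so DPF2 was itself well raised at a window that the rule counts as dominated by H3K14cr. In all 8 windows both H3K14cr libraries were above both DPF2 libraries. The same held for 99.2% of the 3656 windows, which the rule favours, and for 52.3% of balanced windows.

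The windows with the highest lower bound of the ratio had DPF2 at 1.00-fold to 2.02-fold over its surroundings in single libraries. They were picked from the whole set for that bound. The intervals given for them do not allow for the picking, so their ratios are likely overstated. In order they were chr6:34205001-34206000, chr20:2854001-2855000, chr11:57193001-57194000, chr8:8750001-8751000, chr16:578001-579000, chr9:127020001-127021000, chr7:149157001-149158000 and chr1:44445001-44446000. At chr6:34205001-34206000 the H3K14cr libraries had 5.88 and 6.51 CPM, 3.07-fold and 3.48-fold over the surroundings, and the DPF2 libraries had 1.54 and 1.65 CPM, 1.03-fold and 1.02-fold. DPF2 was thus level with its surroundings in both libraries while H3K14cr formed a peak. At chr20:2854001-2855000 the levels were 4.14 and 3.97 CPM for H3K14cr and 1.41 and 0.825 CPM for DPF2, a ratio of 3.87 in pooled reads (2.44 to 6.42). DPF2 was 2.02-fold over the surroundings in replicate 1 and 1.09-fold in replicate 2, and each of these rests on 11 reads. At chr1:44445001-44446000, the only window in both orders of 8, H3K14cr had 7.63 and 8.17 CPM and DPF2 had 2.57 and 2.55 CPM, with a pooled ratio of 3.11 (2.30 to 4.27). Its DPF2 folds were 1.20 and 1.35, against H3K14cr folds of 3.12 and 3.31.

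**Figure D2:**
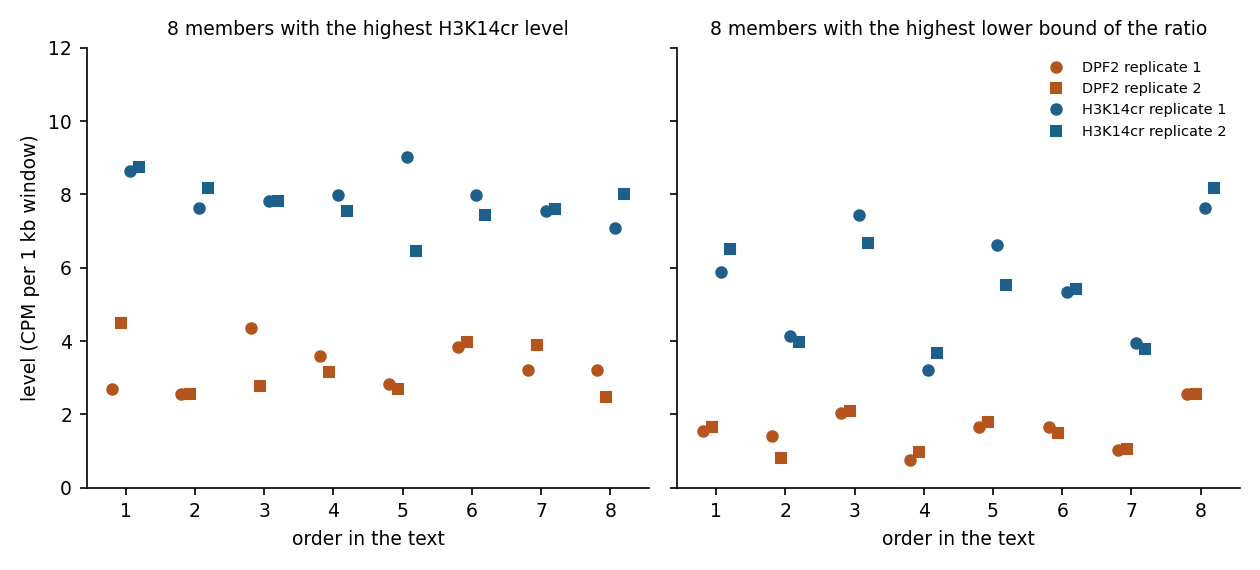
Level in each of the 4 libraries (y axis, CPM per window, 1 point per library) at the 8 windows with the highest H3K14cr level (left) and the 8 with the highest lower bound of the ratio (right), in the order the text names them. Both H3K14cr libraries lie above both DPF2 libraries in every window shown, as at 99.2% of all 3656 windows. On the right, 2 windows had H3K14cr at or below 4 CPM in both libraries.

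DPF2 was weaker at these windows but seldom absent. A DPF2 fold of at least 3 in both libraries was found at 970 of the 3656 windows (26.5%, Wilson 95% interval 25.1 to 28.0%), against 0.385% of all covered windows and 4105 of 5650 balanced windows (72.7%, 71.5 to 73.8%). The rule set an upper limit on the level of DPF2 and no lower one, so the lower share than at balanced windows is a description. With 1 DPF2 library in place of both, the share was 40.2% (replicate 1) or 43.7% (replicate 2). The median of the mean DPF2 fold was 2.80, against 4.10 at balanced windows and 0.677 over all covered windows. The mean DPF2 fold was at least 1.5 in 3606 windows (98.6%), against 10.5% of all covered windows and 100% of balanced ones. It was under 1.5 in 50 (1.37%) and under 1 in 1. At the upper end, 137 windows (3.75%) had a mean DPF2 fold of at least 5, against 0.0899% of all covered windows and 25.3% of balanced ones. The H3K14cr folds of the sets differed little, with medians of 4.53 and 4.39.

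At the 8 windows with the lowest DPF2 folds, H3K14cr formed a peak and DPF2 had little or no local rise, at 0.88-fold to 1.51-fold in single libraries. At chr18:33708001-33709000, the 1 window with a mean fold under 1, DPF2 had 1.80 and 1.95 CPM, 0.90-fold and 1.00-fold over the surroundings, and H3K14cr had 3.77 and 3.40 CPM, 3.13-fold and 3.02-fold. The DPF2 level there was above the median of covered windows, 0.289 CPM, but no higher than in the windows around it. At chr2:162165001-162166000 the DPF2 libraries had 0.513 and 0.675 CPM, from 4 and 9 reads, and the H3K14cr libraries 2.21 and 2.02 CPM, from 24 and 35 reads. Its DPF2 folds of 0.96 and 1.18 therefore carry wide counting error. The others of the 8 lowest were chr6:34205001-34206000, chr14:103019001-103020000, chr12:56708001-56709000, chr2:232574001-232575000, chr1:27153001-27154000 and chr2:220093001-220094000, where the H3K14cr folds of single libraries ran from 3.06 to 4.23.

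The antibodies were also compared library by library, on the contrast the rule used. At 3628 of the 3656 windows (99.2%) both H3K14cr libraries were above both DPF2 libraries. The same held for 29.8% of all 255612 windows that averaged 10 reads or more per library and for 52.3% of balanced windows. All 3656 windows had that many reads. Across the 255612 windows, limma on log2(CPM + 0.5) called 3032 higher in H3K14cr (1.19%) and 516 higher in DPF2 at an adjusted p of at most 0.05, and 1277 of the 3656 windows were among the former. Nothing can be read from that overlap, since the rule used the same contrast. On this log2 scale the median difference was 0.69 at these windows, 0.25 at balanced windows and 0.11 over all windows tested. The calls also leaned on the scaling and on single libraries, and the counts for the latter are given at the end. The median-of-ratios factors, computed from enriched windows, put the median of all tested windows at -0.20 rather than 0.11. With them limma called 249 windows higher in H3K14cr and 3458 higher in DPF2, and 147 of the 3656 were among the former. The median difference was then 0.32 at these windows and -0.12 at balanced windows, so that of balanced windows changed sign. With library totals, leaving out H3K14cr replicate 1 or 2 gave a median difference of 0.69 or 0.71 at these windows. Leaving out DPF2 replicate 1 or 2 gave 0.69 or 0.73. In these 4 fits it was 0.21 to 0.25 at balanced windows and 0.10 to 0.11 over all windows tested.

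The rule was applied to the replicate 1 libraries alone, and the chosen windows were measured in the replicate 2 libraries, and then the reverse. The ratio was thus measured in reads that the fold, level and ratio thresholds had not used. Only the removal of very high windows used all 4 libraries. The excess of H3K14cr over DPF2 was seen again, at a smaller size. Both replicates were counted as 1 sample, so this shows how far the ratio repeats in other reads of that sample. Replicate 1 chose 5381 windows, with a median ratio of 1.89 in the choosing libraries and 1.47 in replicate 2 (quartiles 1.19 and 1.80). Replicate 2 chose 4943 windows, with a median of 1.81 in the choosing libraries and 1.4997 in replicate 1 (quartiles 1.19 and 1.92). H3K14cr was above DPF2 at 88.6% and 87.8% of the chosen windows in the libraries that only measured, against 80.7% and 78.8% of all windows passing the H3K14cr part and 74.4% and 72.0% of those not chosen. The median ratio depended on the scaling. Scaled by median-of-ratios factors instead, it was 1.19 at the 1684 windows then chosen by replicate 1 and 1.23 at the 1286 chosen by replicate 2. The 6727 and 6580 windows that passed the H3K14cr part but were not chosen were measured with library totals. Their median was 1.22 in both directions, against 1.47 and 1.4997 at chosen windows on the same scaling.

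A ratio of at least 1.5 was found again at 47.3% of the windows chosen by replicate 1 (Wilson 95% interval 46.0 to 48.6%) and at 49.99% of those chosen by replicate 2 (48.6 to 51.4%). Over all windows passing the H3K14cr part the shares were 35.0% and 36.5%, and over those not chosen 25.2% and 26.4%. About as many chosen windows therefore fell short of the threshold in the second measurement as met it. Replicates 1 and 2 chose 2073 windows in common, 38.5% of the first list and 41.9% of the second. Across the 9389 windows the Spearman correlation of the ratio between replicates was 0.383, a description across windows that share their libraries.

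**Figure D3:**
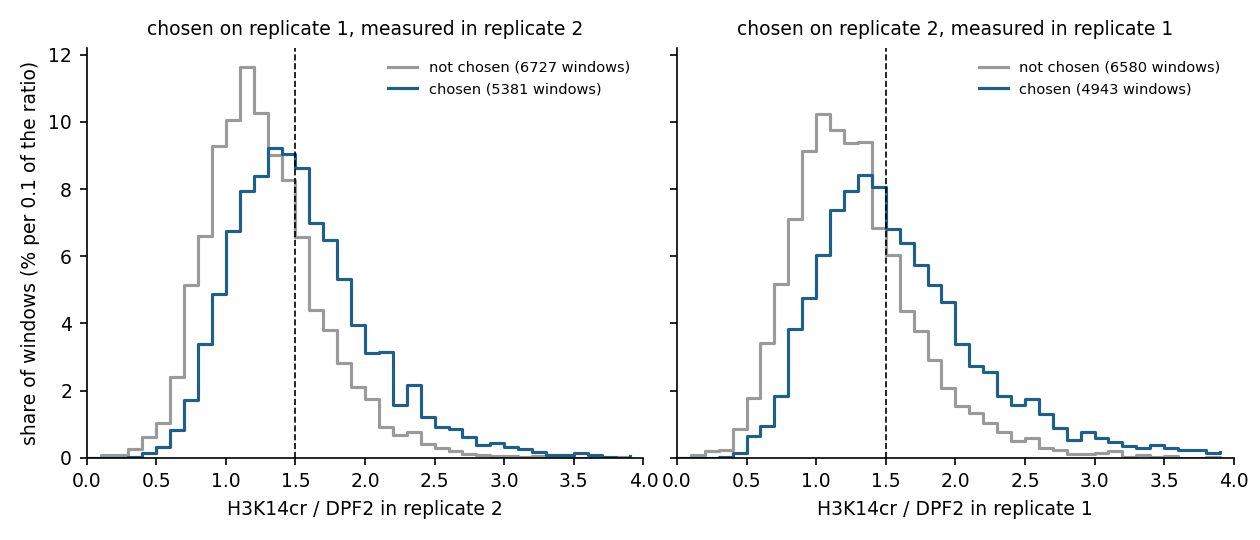
Share of windows (y axis, % per 0.1 of the ratio) by the H3K14cr to DPF2 ratio (x axis) in the replicate that did not choose them, for chosen windows and for windows that passed the H3K14cr part but were not chosen. Ratios of 4 or more are not drawn. The curves overlap widely, and the chosen windows are shifted to the right, with medians of 1.47 and 1.4997 against 1.22, while the dashed line marks 1.5.

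A larger ratio in the choosing libraries went with a larger ratio in the other replicate, though over a much narrower range. Windows chosen at a ratio from 1.5 to under 2 had a median of 1.42 in replicate 2, those chosen at 2 to under 3 had 1.54, and the 397 chosen at 3 or more had 1.60, although the last had a median of 3.40 in replicate 1. In the reverse direction the medians were 1.46, 1.62 and, for 147 windows, 1.79. The measured DPF2 fold was lower along the same steps, from 3.03 to 2.70 to 2.23 in replicate 2 and from 3.08 to 2.66 to 2.11 in replicate 1. Over all chosen windows the median DPF2 fold in the measuring library was 2.86 and 2.92, against 3.58 and 3.67 at windows balanced in the choosing replicate. A DPF2 fold of at least 3 was found at 45.0% and 47.2% of the chosen windows and at 68.8% and 70.3% of the balanced ones. The lower DPF2 of the set was thus present in reads that the thresholds had not used. Those reads came from the same sample and the rule limits DPF2, so this is a description and no test.

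The ratio was higher where H3K14cr itself was higher. The groups below were made on H3K14cr, the numerator of the ratio, and measured in the same sample, so their order is a description. With the windows passing the H3K14cr part split into 5 groups by their H3K14cr level in replicate 1, the median ratio in replicate 2 was 1.19, 1.26, 1.32, 1.37 and 1.496 from the lowest group to the highest. The reverse direction gave 1.20, 1.25, 1.31, 1.36 and 1.49. The share of windows with a measured ratio of at least 1.5 went from 24.4% to 49.6% in replicate 2 and from 28.1% to 48.9% in replicate 1. The median DPF2 level in replicate 2 went up along the same groups, from 1.65 to 2.93 CPM, while H3K14cr went from 1.90 to 4.38 CPM, so DPF2 was higher as well, but by a smaller factor. The median DPF2 fold had no such order, at 3.12, 3.27, 3.39, 3.37 and 3.19 in replicate 2 and 3.27, 3.46, 3.42, 3.44 and 3.19 in replicate 1.

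The shape of the signal was examined around H3K14cr summits, the highest 100 bp bin of H3K14cr in the choosing replicate, with the signal read from the other replicate. H3K14cr formed a narrow peak at the chosen windows and DPF2 a lower and broader one. The rule asked for H3K14cr above its neighbours and limited DPF2 in the window, so this shape is a description. A second library of the same sample does not change that. At the summit H3K14cr had 0.392 CPM per 100 bp in replicate 2 and 0.419 in replicate 1, and DPF2 had 0.247 and 0.260. The flanks, 2 to 3 kb away, had 0.0806 and 0.0810 CPM per 100 bp for H3K14cr and 0.0721 and 0.0731 for DPF2. The summit was thus 4.86 and 5.17 times the flanks for H3K14cr and 3.42 and 3.55 times for DPF2. At balanced windows it was 5.29 and 5.53 times for H3K14cr and 4.42 and 4.65 times for DPF2.

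**Figure D4:**
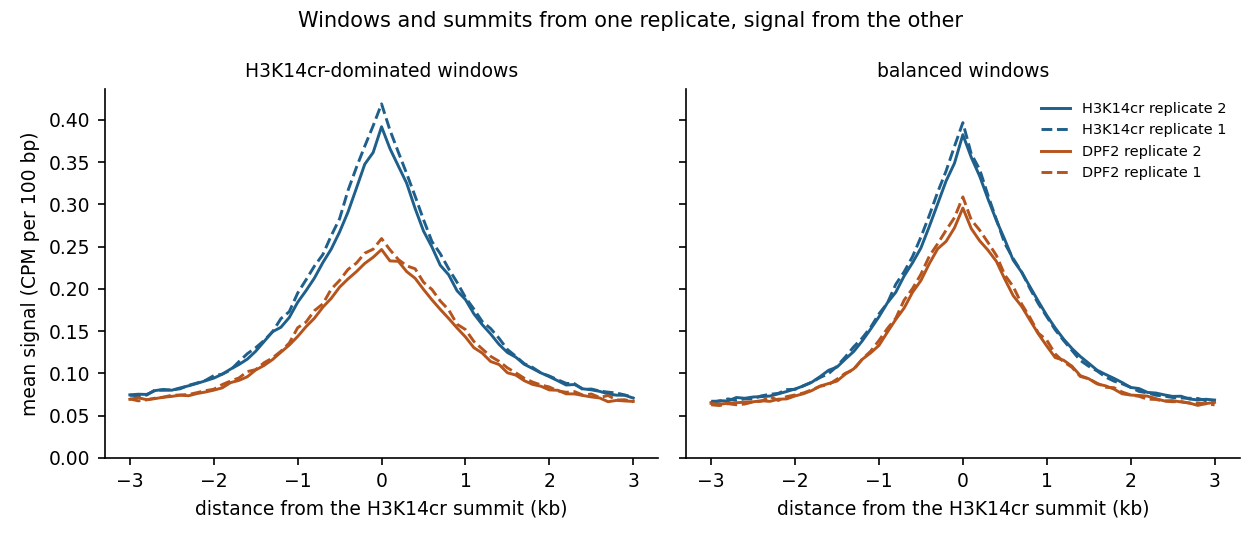
Mean signal (y axis, CPM per 100 bp) by distance from the H3K14cr summit (x axis, kb) at windows chosen as H3K14cr-dominated (left) and balanced (right), with windows and summits from 1 replicate and signal from the other. At the chosen windows the DPF2 curve is lower and rounder, with 0.247 and 0.260 CPM at the summit against 0.296 and 0.309 at balanced windows, while beyond 2 kb all curves come close together.

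Midway between summit and flanks, the mean DPF2 signal at the chosen windows was 1709 and 1711 bp wide and the mean H3K14cr signal 1329 and 1300.1 bp. At balanced windows the widths were 1363 and 1366 bp for DPF2 and 1269 and 1232 bp for H3K14cr, so the sets differed in the width of DPF2 by over 300 bp and in that of H3K14cr by under 100 bp. Each width comes from 1 mean profile per library, with n = 1 per antibody, so the difference has no test. The profiles were aligned on H3K14cr, so DPF2 that peaks beside the H3K14cr summit also widens the DPF2 profile. A touching window was higher in DPF2 than the chosen window itself at 43.6% (replicate 2) and 46.1% (replicate 1) of the chosen windows, against 27.4% and 28.1% of the balanced ones. For H3K14cr a touching window was higher at 31.5% and 32.2% of the chosen windows and 27.3% and 27.7% of the balanced ones.

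The DPF2 profile was wider at each step of the ratio in the choosing replicate. The H3K14cr profile was no wider at a ratio of 1.5 or more than at 1.25 to under 1.5. A larger ratio limits DPF2 in the window and not beside it, so the order of the DPF2 widths is a description. In replicate 2 DPF2 was 1153 bp wide at windows with a ratio under 1, 1391 bp at 1 to under 1.25, 1507 bp at 1.25 to under 1.5, 1662 bp at 1.5 to under 2 and 1830.0 bp at 2 or more. The H3K14cr widths at the same steps were 1117, 1284, 1343, 1342 and 1317 bp. In replicate 1 DPF2 went from 975 to 1966 bp and H3K14cr from 949 to 1291 bp. Many windows lay next to another window that passed the H3K14cr part, which widens a mean profile. Without them, an alternative added after the data were seen, DPF2 was 1432 and 1411 bp wide at the 3047 and 2640 chosen windows left, and 1157 and 1099 bp wide at balanced windows, and H3K14cr was 1189 and 1120.4 bp wide against 1042 and 999 bp.

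**Figure D5:**
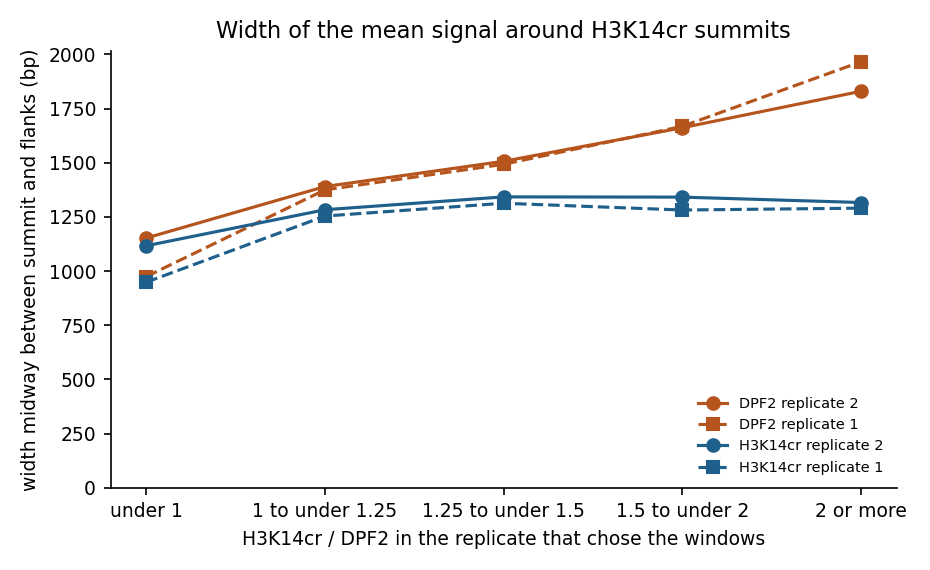
Width of the mean signal around H3K14cr summits (y axis, bp, midway between summit and flanks) by the H3K14cr to DPF2 ratio in the choosing replicate (x axis, 5 groups), each point from 1 mean profile in the replicate that did not choose. The DPF2 width goes from 1153 to 1830.0 bp in replicate 2 and from 975 to 1966 bp in replicate 1, while the H3K14cr width stays between 1254 and 1343 bp in the 4 groups with a ratio of 1 or more.

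The excess of H3K14cr over DPF2 was followed away from the window. At the summit the ratio of the mean signals was 1.59 and 1.61 in the measuring replicates, and it was 1.32 to 1.36 at 500 bp on either side, 1.25 to 1.31 at 1000 bp and 1.06 to 1.08 at 3000 bp. At balanced windows it was 1.29 and 1.28 at the summit and 1.20 to 1.27 at 1000 bp. The gap between the sets thus narrowed from the summit outwards. The rule set them apart by the ratio in the window that holds the summit, so the narrowing is a description. The all-library values that follow are a description, since the rule used the ratio in the window and the H3K14cr level of the windows within 10 kb. With all 4 libraries, the median ratio around the 3656 windows was 1.24 within 2 kb, touching windows included, 1.05 at 2 to 5 kb, 1.04 at 5 to 10 kb and 1.06 at 10 to 50 kb. At balanced windows these medians were 1.20, 1.04, 1.02 and 1.05. The level around the windows was slightly higher than around balanced ones for both antibodies, at 1.42 against 1.21 CPM per window for H3K14cr and 1.16 against 1.01 for DPF2 within 2 kb.

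By runs and by contact with balanced and DPF2-dominated windows, the H3K14cr-dominated windows were placed much as balanced ones were. They formed 3328 runs, of which 3010 (90.4%) were a single window, 309 had 2 windows, 8 had 3 and 1 had 4. Among runs of balanced windows 87.6% were single, and a fold taken over neighbouring windows itself favours isolated windows in both sets. The median distance between neighbours on a chromosome was 240 kb, and 351 neighbours (9.66%) lay within 5 kb. A balanced window touched 860 of the 3656 windows (23.5%), against 22.3% of the balanced windows themselves, and the nearest balanced window was at a median of 55 kb. A DPF2-dominated window touched 34 of them (0.930%), against 1.08% of balanced windows, and the nearest was at a median of 1358.5 kb. A touching window with a DPF2 fold of at least 3 in both libraries was found at 1239 windows (33.9%, Wilson 95% interval 32.4 to 35.4%), against 28.1% (27.0 to 29.3%) of balanced windows. A touching window that passed the H3K14cr part was found at 41.0% (39.4 to 42.6%), against 37.4% (36.2 to 38.7%) of balanced windows. Contacts of these kinds were thus somewhat more frequent than at balanced windows.

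The longest run was chr4:15003001-15007000, with 4 windows. Its mean levels per window were 2.74 and 2.46 CPM in the H3K14cr libraries and 1.51 and 1.37 CPM in the DPF2 libraries, a ratio of 1.81. At 1 of its windows, chr4:15005001-15006000, DPF2 had 1.93 CPM in replicate 1 and 0.525 CPM in replicate 2, from 15 and 7 reads, so single windows of the run vary more than its mean. The run chr12:118498001-118501000 had 5.02 and 4.53 CPM for H3K14cr and 2.44 and 2.58 CPM for DPF2 over 3 windows, a ratio of 1.90. The run chr11:63684001-63687000 had 4.54 and 4.68 CPM for H3K14cr and 2.78 and 2.55 CPM for DPF2, a ratio of 1.73. In all 3 runs the antibodies did not overlap in their means. At 99.2% of the 3656 single windows the libraries did not overlap either, so this is not particular to the runs.

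Across 23 chromosomes, with Y left out, the density of H3K14cr-dominated windows ran from 0.328 per covered Mb on X to 3.92 on chromosome 19. The windows passing the H3K14cr part were densest and sparsest on the same chromosomes, at 10.0 per Mb on 19 and 0.944 on X. As a share of those windows, the set made up 33.7% on chromosome 1 (361 of 1070, Wilson 95% interval 31.0 to 36.6%) and 50.4% on chromosome 22 (65 of 129, 41.9 to 58.9%), with a median of 39.8% over 23 chromosomes. The ratio of all H3K14cr to all DPF2 reads also differed between chromosomes, from 0.918 on X to 1.08 on 22, which were also lowest and highest in the median ratio of their passing windows, at 1.31 and 1.51. The part of that difference in the shares was not tested.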

How the data were processed

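The authors' deposited files hold signal in 100 bp bins, scaled to 10000000 reads per library. The submitters' processing notes name Bowtie2 and the builds hg19 and mm9; how duplicates were handled is not given in the sources used here. Dividing by the value of 1 read gave whole reads within 0.005 for all but 1, 3, 4 and 0 bins (100%, 100%, 99.9999% and 100% of bins). Bins were assigned to 1 kb windows by their midpoint. Members, lists and tests were chosen with earlier results of these data known.

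limma (trend, 3.58.1) on log2(CPM + 0.5) was fitted over all 255612 windows with a mean of at least 10 reads, with Benjamini-Hochberg adjustment. As an alternative, edgeR (4.0.16, quasi-likelihood) was run on the recovered reads and called 4009 windows. Both were run on simulated reads with sampling noise alone, and the width measure on simulated peaks centred on the summit. Signal that peaks beside the summit was not simulated, so these runs only check the code. Since library pairs showed sampling noise alone, p-values measure technical spread. Windows are named by a rule: the 8 with the highest H3K14cr level, the 8 with the highest lower bound of the ratio, the 8 with the lowest DPF2 fold, the 3 longest runs, and 3 on each side of the ratio threshold. Bounds are exact binomial for ratios and Wilson for shares, at 95%. Alternatives covered window size and grid, thresholds, background, scaling, pseudocount, filter, summit, flank, pairing and each library left out. Analyses of start sites, genes and motifs, planned for an hg19 annotation, were not run. R 4.3.3 ran both; other steps used Python 3.11.15 with scipy 1.17.1, pandas 2.3.3, numpy 2.4.6 and matplotlib 3.10.9.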

Additional observations from a re-analysis of the deposited data

How the results depend on the processing

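The number of H3K14cr-dominated windows, 3656, follows the thresholds. It was 719 with median-of-ratios factors, which lower every ratio, 899 at a ratio of at least 2, 963 at a fold of at least 5, 1355 at 4 CPM or more, 9777 with the chromosome mean as background, 8757 with windows of 500 bp and 1500 with windows of 2000 bp. Leaving out 1 library gave 3779 to 5387. A grid shifted by 500 bp gave 3738, and overlapped 2303 of the 3656 (63.0%). The median ratio in libraries not used to choose, 1.47, was 1.4997 with replicate 2 choosing, 1.19 with median-of-ratios factors, 1.56 when chosen at 2 or more, 1.61 at 4 CPM or more and 1.43 without touching windows. The share with a DPF2 fold of at least 3, 26.5%, was 73.1% at a fold of at least 2, 80.3% over the chromosome mean and 40.2 to 43.7% with 1 DPF2 library. The DPF2 and H3K14cr widths, 1709 and 1329 bp, were 1711 and 1300.1 bp with replicate 2 giving the summit, 2041 and 1702 bp around window centres, 1738 and 1355 bp with flanks of 500 bp, and 1432 and 1189 bp without touching windows. The flank ratio, 1.11 within 10 kb, was 1.24, 1.05, 1.04 and 1.06 at the 4 distances given above, and 1.11 to 1.12 without 1 library. limma called 3548 windows, 1277 of them H3K14cr-dominated. Without a minimum of reads it called 1469 and 563, and with median-of-ratios factors 3707 and 147. Leaving out 1 library gave 189 to 9338 and 12 to 1803, where the lone library of an antibody is assumed to vary like the other pair. Fitting the replicate number as a block gave 4219 and 1492. Same-numbered libraries did not deviate together (r = 0.00147 over 255612 windows), so the number was not taken as a pairing. The edgeR test gave 4009 and 1482. The cause of each change was not tested. Depth limits single windows, at a median of 15 DPF2 reads in replicate 1.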
